A study of Mus musculus with 33 samples.

Results

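Collagen chain genes encode the subunits of collagens, the most abundant proteins of animal extracellular matrix. The genes described here are all those whose symbol, mapped from the Ensembl ID, has the form Col, a number, the letter a and a number; 44 of the 37583 gene IDs in the count files match. They fall into 8 classes: 11 fibrillar, 6 type IV, 6 type VI, 9 FACIT, 3 short-chain network, 2 multiplexin and 4 transmembrane genes, and 3 others (Col7a1, Col26a1, Col28a1).

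Poly-A RNA came from mouse embryonic fibroblasts (MEFs), from cells at days 3, 6, 9 and 12 of reprogramming to pluripotency and from iPS-stage cells, all of the 129SV/Jae/C57BL6J background and all harvested with trypsin. MEFs grew in MEF medium, while the reprogramming cells were kept in ES medium with dox and AA, as the labels abbreviate them. Except for the MEFs, each stage was split by flow cytometry into cells without (SSEA1neg) and with (SSEA1pos) the surface antigen SSEA1, which mouse pluripotent cells carry. Each of the 11 groups had 3 libraries. The labels name neither the factors introduced nor a clone, and no label says whether replicates are separate cultures or animals. The p-values therefore reflect the scatter of these libraries, which may be technical.

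Each collagen molecule is a triple helix of 3 chains, either copies of 1 chain or a mixture of chains from partner genes. Fibrillar collagens (types I, II, III, V and XI among them) form the tensile fibres that fibroblasts secrete, FACIT collagens decorate those fibres, type IV collagen is the sheet of basement membranes, and type VI forms beaded filaments around cells. Multiplexins lie at basement membranes, and transmembrane collagens are anchored in the cell surface. Loss of the fibroblast matrix and gain of epithelial character are known early steps of reprogramming.

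Reads in genes ranged from 8.93 to 41.69 M per library (median 23.15 M), so that 3 counts, the most that 0 reads allow, corresponded to 0.072 to 0.336 CPM (read counts scaled to a common library total). Such floors cover counting error only. The mesenchymal markers (10 genes, among them Thy1, Pdgfra and Postn) summed to 12400 to 13700 CPM in MEFs and 132 to 173 CPM in iPS-stage SSEA1pos cells. Some libraries stood apart within their group. MEF replicate 2 had low type VI levels and 175 CPM of summed macrophage markers against 5.06 and 30.2 CPM in the other MEF libraries. Macrophage markers were also highest in replicate 2 of each SSEA1neg group, up to 549 CPM at the iPS stage. The iPS-stage SSEA1neg libraries held 231, 554 and 2690 CPM of summed pluripotency markers in replicates 1, 2 and 3. The part of these differences in the collagen results was not tested, except where a value without a library is given.

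Of the 44 genes, 43 were tested and 1, the FACIT gene Col19a1, was too low. In 16 of them every library exceeded 1 CPM. Levels below are CPM in replicates 1, 2 and 3, and changes are log2 fold change ± standard error from edgeR's quasi-likelihood test over all 17326 genes. Rose and fell are used of genes that changed 2-fold or more with an adjusted p below 0.05.

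Collagen messages took a far smaller share of reads by day 3 than in MEFs. In MEFs, 7.66, 8.51 and 9.37% of reads in genes belonged to the 44 collagen genes. At day 3 this share was 0.52, 0.993 and 0.643% in SSEA1neg and 0.407, 0.522 and 0.426% in SSEA1pos cells, far below every MEF library. From there the fractions parted. The SSEA1neg share was 0.964, 1.71 and 1.72% at day 12 and 1.73, 2.44 and 2.46% at the iPS stage, whereas the SSEA1pos share was 0.111, 0.128 and 0.193% at day 12 and 0.175, 0.0902 and 0.144% at the iPS stage. The fractions thus touched neither each other nor MEFs at these stages. In bulk RNA, fewer cells of a type and less RNA per cell cannot be told apart.

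**Figure D1:**
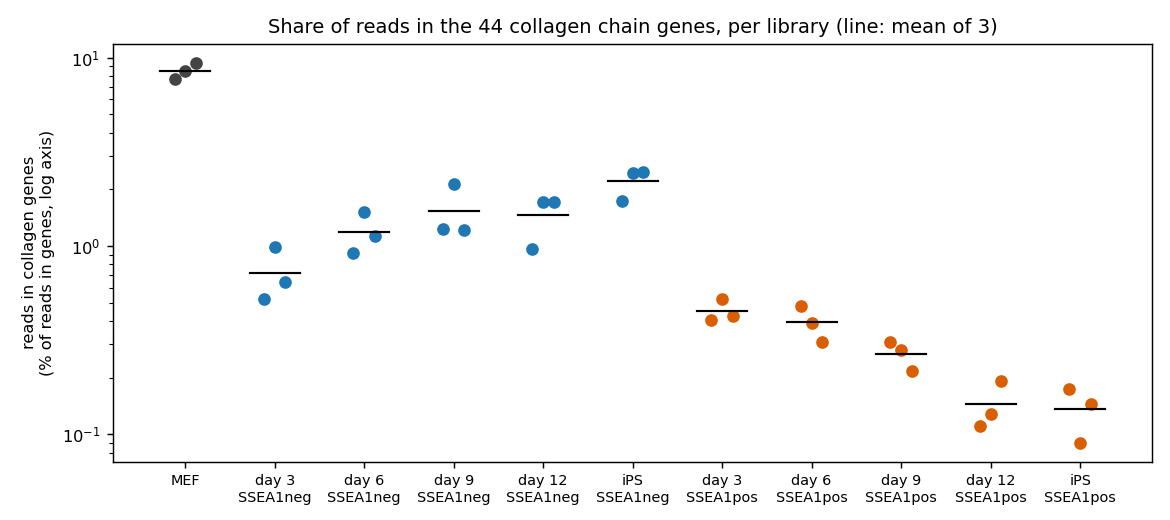
Share of reads in genes that fell in the 44 collagen chain genes, one point per library and a line at the mean of 3, on a log axis. The MEF libraries lie between 7.66 and 9.37%, the SSEA1neg groups rise from day 3 to the iPS stage, and the SSEA1pos groups fall to between 0.0902 and 0.175%.

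Which collagens made up the remainder differed between the fractions. Fibrillar genes gave 80.6, 83.9 and 82.9% of collagen reads in MEFs and still 49.7, 65.6 and 56.8% in day 12 SSEA1neg cells. In day 6 SSEA1pos cells they gave 15.3, 11.6 and 9.04%, and type IV genes gave 68, 66.2 and 57.1%. At the iPS stage the SSEA1pos libraries drew 47.5, 55.8 and 41% of their collagen reads from the multiplexins, almost all of it Col18a1. From MEFs to iPS-stage SSEA1pos cells the leading class thus went from fibrillar to type IV to the multiplexins, within a smaller total.

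**Figure D2:**
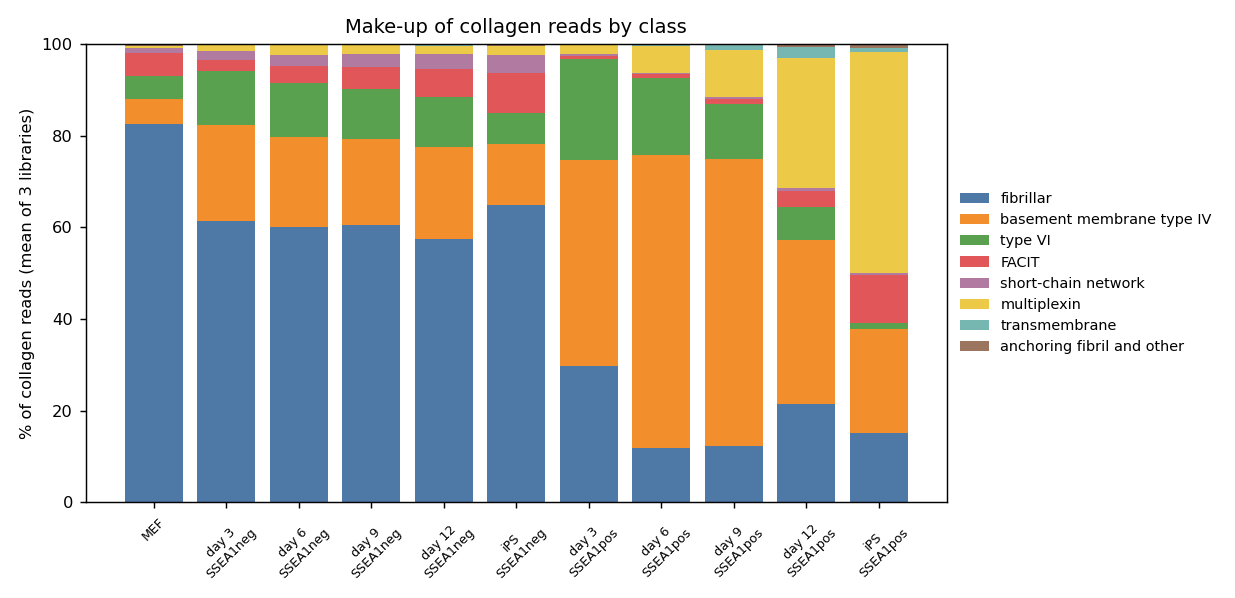
Mean make-up of collagen reads by class in each group (bars sum to 100%, mean of 3 libraries). Fibrillar genes lead in MEFs and SSEA1neg cells, type IV genes lead in SSEA1pos cells of days 3 to 12, and multiplexins lead in iPS-stage SSEA1pos cells. In day 12 SSEA1pos cells the type IV mean is 35.6% and the multiplexin mean 28.4%, but multiplexins lead in replicate 1 (36.5 against 25.6%).

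Against MEFs, the fibrillar class fell as a whole in SSEA1pos cells, with all 11 genes lower at each of the 5 stages. In total 34 of the 43 tested collagen genes fell and 0 rose in day 3 SSEA1pos cells, when 16.7% of all genes fell and 15.6% rose; the median log2 change of the collagens was -3.49 against 0.09 for all genes. In day 3 SSEA1neg cells 31 fell and 0 rose (14.9% and 15.3% of all genes), with a median of -3.26. All comparisons with MEFs use the same 3 MEF libraries.

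Col1a1 and Col1a2 encode the 2 chains of type I collagen, the main fibril of skin and bone. Col1a2 stood at 22700, 27300 and 26200 CPM in MEFs, at 1620, 3670 and 2430 CPM in day 3 SSEA1neg and at 603, 1150 and 854 CPM in day 3 SSEA1pos cells. The 3 groups did not overlap, but the difference between the day 3 fractions did not pass the test. Col1a2 fell by 4.87 ± 0.74 in day 3 SSEA1pos cells (adjusted p = 7.8e-06) and by 3.31 ± 0.69 in day 3 SSEA1neg cells (adjusted p = 0.00036). Its SSEA1pos level went on down through 381, 230 and 101 CPM at day 6 to 72.5, 65.4 and 91.6 CPM at day 12. Col1a1, in contrast, was already near its day 12 level at day 3 in SSEA1pos cells, with 36.2, 64.7 and 45.9 CPM at day 3 and 43.8, 59.2 and 78.5 CPM at day 12, ranges that overlap.

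Type III collagen has a single chain gene, Col3a1, and is co-deposited with type I. Col3a1 measured 10800, 7460 and 11900 CPM in MEFs and 50.4, 112 and 118 CPM in day 3 SSEA1pos cells (-6.75 ± 0.97, adjusted p = 3.9e-06). In day 3 SSEA1neg cells it measured 154, 545 and 343 CPM. Col5a1, whose product starts fibril assembly, fell by 6.55 ± 0.61 in day 3 SSEA1pos cells (adjusted p = 7e-09), from 6780, 10200 and 10400 to 67.4, 112 and 112 CPM. The FACIT gene Col12a1, whose product binds type I fibrils, went from 5030, 4280 and 5090 to 10.4, 24.2 and 19.6 CPM (-8.06 ± 0.98, adjusted p = 3.7e-07). Col7a1, which encodes the anchoring fibril of skin, fell by 8.52 ± 0.75 (adjusted p = 3.4e-09).

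**Figure D3:**
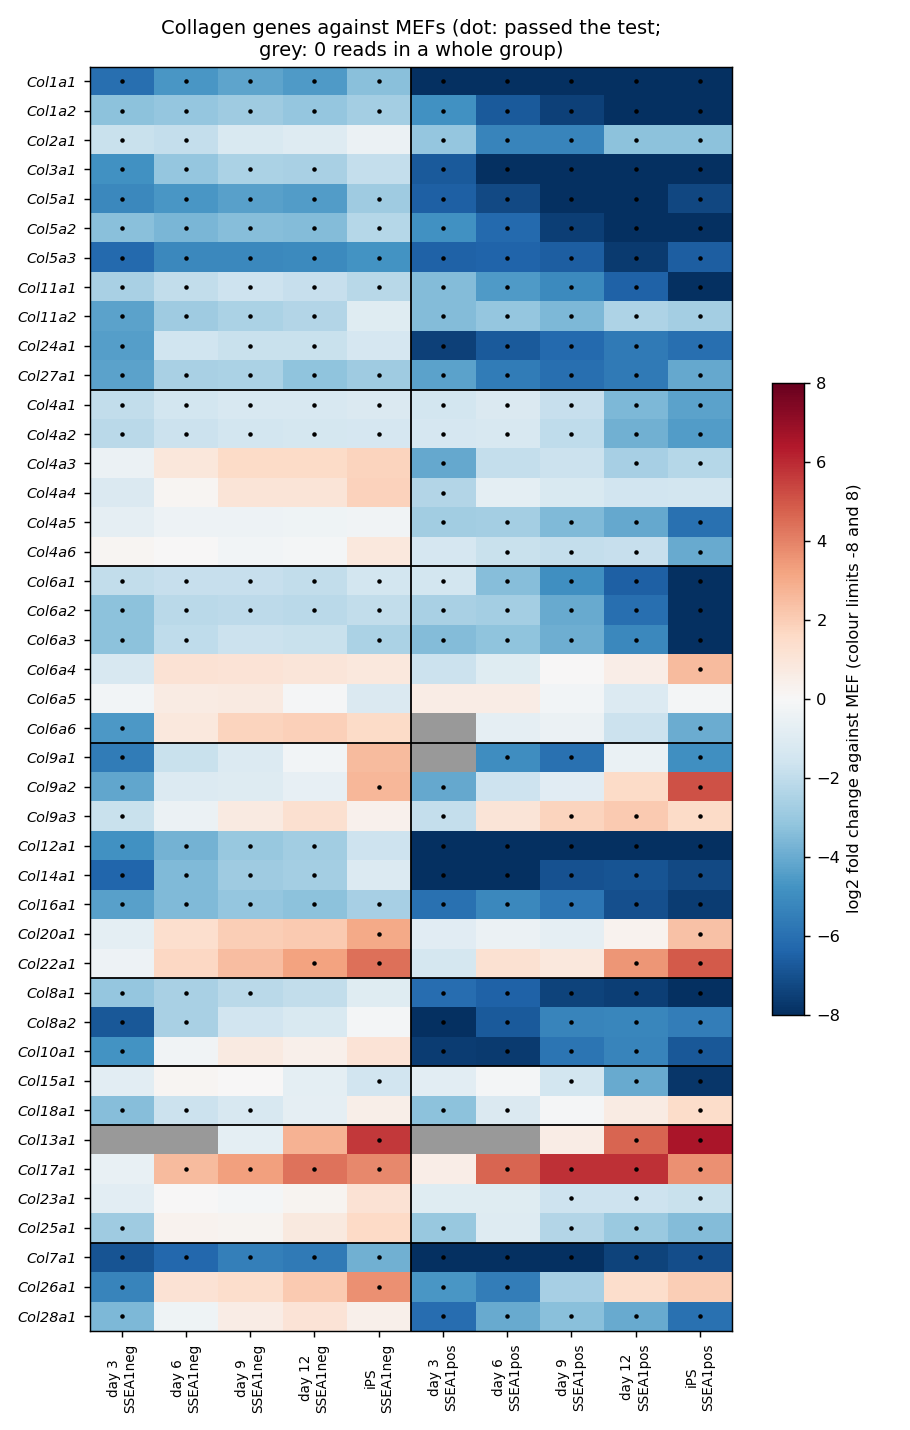
Log2 fold change against MEFs of the 43 tested collagen genes (rows, by class) in the 10 other groups (columns), from blue (lower) to red (higher). Black dots mark genes that passed the test and grey cells are those where a whole group had 0 reads; the 11 fibrillar genes at the top are called lower in all 5 SSEA1pos columns, and red cells gather in FACIT and transmembrane genes.

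Type IV collagen outlasted the fibrillar genes in SSEA1pos cells and then fell later. Col4a1 and Col4a2, which encode the 2 chains of the common basement membrane network, are neighbours on opposite strands, and their RefSeq starts (GRCm38.p6) lie 21 bases apart. Their exons overlap each other, and reads there cannot be separated without strand. Their start regions are shown because the pair moved together in these data. The window of Col1a2, whose partner Col1a1 lies elsewhere and moved differently, is shown for contrast. This choice was made with the values known, and other pairs vary. Col4a5 and Col4a6, on opposite strands with starts 1343 bases apart, had CPM ratios from 3.15 to 48.2 over the 33 libraries (r = 0.92 of log2 levels). Col3a1 and Col1a1, on chromosomes 1 and 11, correlated at r = 0.97. Whether close starts go with joint change was not tested. Each window runs from 250 bases before to 50 bases after the start, 5′ to 3′ on the strand of the gene. Capitals mark GGGCGG (GC box) and CCAAT letters on either strand. The windows are chr8:11312777-11313076, minus strand, for Col4a1, chr8:11312555-11312854, plus strand, for Col4a2, and chr6:4505368-4505667, plus strand, for Col1a2. The first pair overlap.
Col4a1: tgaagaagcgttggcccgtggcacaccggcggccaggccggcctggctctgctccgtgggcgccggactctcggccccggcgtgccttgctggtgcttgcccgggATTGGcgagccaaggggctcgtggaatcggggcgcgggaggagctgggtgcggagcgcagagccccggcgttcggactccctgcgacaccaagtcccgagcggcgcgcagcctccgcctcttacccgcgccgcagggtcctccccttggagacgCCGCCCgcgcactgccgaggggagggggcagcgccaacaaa
Col4a2: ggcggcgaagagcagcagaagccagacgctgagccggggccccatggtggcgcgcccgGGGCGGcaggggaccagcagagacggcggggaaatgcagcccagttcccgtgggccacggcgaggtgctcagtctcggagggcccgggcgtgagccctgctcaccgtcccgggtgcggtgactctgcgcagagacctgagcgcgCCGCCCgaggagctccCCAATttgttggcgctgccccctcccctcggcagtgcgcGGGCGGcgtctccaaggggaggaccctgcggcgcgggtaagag
Col1a2: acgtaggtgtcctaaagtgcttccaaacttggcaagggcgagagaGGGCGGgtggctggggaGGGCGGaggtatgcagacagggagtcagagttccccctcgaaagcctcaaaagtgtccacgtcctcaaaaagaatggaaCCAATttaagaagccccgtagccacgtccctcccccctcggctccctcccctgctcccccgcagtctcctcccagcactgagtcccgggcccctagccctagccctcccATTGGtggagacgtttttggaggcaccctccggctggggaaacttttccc

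A window was found for 35 of the 44 genes, 38 windows in all. Of these, 60.5% held GGGCGG on either strand, against 35.7% of all 32851 windows in the table. CCAAT was in 34.2% of the collagen windows and 37.4% of all windows, and TATAAA in 13.2% and 13.6%. These are matches of letters, not sites.

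In MEFs Col4a1 stood at 2800, 4470 and 2930 CPM. In SSEA1pos cells it stood at 1110, 1400 and 1100 CPM at day 3, at 1130, 1050 and 708 CPM at day 9, at 164, 281 and 400 CPM at day 12 and at 160, 73.6 and 292 CPM at the iPS stage. Its day 12 values lay below every day 9 value. Against MEFs it fell by 1.5 ± 0.38 at day 3 (adjusted p = 0.0019), by 1.82 ± 0.38 at day 9 (adjusted p = 0.00027) and by 3.59 ± 0.41 at day 12 (adjusted p = 5.7e-08). Col4a2 followed, at -1.37 ± 0.36 on day 3 and -3.83 ± 0.39 on day 12 (adjusted p = 0.0027 and 1.1e-08). In SSEA1neg cells Col4a1 stayed at 1260, 1130 and 1760 CPM at day 12. At that day it was lower in SSEA1pos than in SSEA1neg cells by 2.29 ± 0.39 (adjusted p = 3.5e-05), whereas at day 3 its SSEA1pos values were the higher ones on average, by 0.45 ± 0.37, and did not pass the test (adjusted p = 0.48).

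Col4a5, whose chain belongs to kidney and epithelial basement membranes, parted between the fractions sooner. It measured 93, 220 and 161 CPM in MEFs, 89.3, 128 and 65.1 CPM in day 3 SSEA1neg cells and 24.7, 31 and 13.6 CPM in day 3 SSEA1pos cells. The SSEA1pos values lay below both other groups, and it fell against MEFs by 2.77 ± 0.54 (adjusted p = 0.00015). Col4a3 and Col4a4, its partners in kidney, were low: no MEF library exceeded 1.77 CPM of Col4a3 or 1.21 CPM of Col4a4.

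Type VI collagen is a filament of 3 different chains, from Col6a1, Col6a2 and Col6a3. Col6a1 measured 2530, 812 and 2260 CPM in MEFs, so that replicate 2 stood far below the others. In SSEA1pos cells it measured 1180, 474 and 382 CPM at day 3, where replicate 1 overlapped the MEF range. The following stages gave 275, 163 and 87.7 CPM at day 6, 78.1, 76.1 and 31.6 CPM at day 9, 11.6, 19.3 and 29.3 CPM at day 12 and 11.8, 3.57 and 1.05 CPM at the iPS stage. Apart from the iPS stage, each stage lay below the one before without overlap. The day 3 fall against MEFs of 1.46 ± 0.58 (adjusted p = 0.04) was lost without MEF replicate 1 (-1.3, adjusted p = 0.095), MEF replicate 3 (-1.4, adjusted p = 0.08), day 3 SSEA1pos replicate 2 (-1.29, adjusted p = 0.12) or replicate 3 (-1.17, adjusted p = 0.16), and with a trend on transcript GC content removed (-1.17, adjusted p = 0.11). Without day 3 SSEA1pos replicate 1 it was -2.18. By day 12 the fall was 6.54 ± 0.72 (adjusted p = 3.4e-08).

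SSEA1neg cells kept Col6a1 level, at 574, 493 and 394 CPM on day 3 and 342, 595 and 526 CPM on day 12, with overlapping ranges. Against MEFs that was a fall of 1.94 ± 0.58 at day 3 and, to the same 2 decimals, at day 12 (adjusted p = 0.0088 and 0.01). The partners of Col6a1 had higher means at day 12 than at day 3 in SSEA1neg cells. Col6a2 went from 74.8, 198 and 145 to 168, 322 and 394 CPM, with overlap. Col6a3 went from 134, 270 and 307 to 317, 555 and 1130 CPM, without overlap. Against MEFs, Col6a2 fell by 2.6 ± 0.57 in day 3 SSEA1pos cells (adjusted p = 0.00055).

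Col15a1 and Col18a1, the 2 multiplexins, went opposite ways in SSEA1pos cells. Type XV collagen links basement membranes to fibrils. Col15a1 measured 204, 83.8 and 188 CPM in MEFs and 98.2, 195 and 132 CPM in day 6 SSEA1pos cells, ranges that overlap. At the iPS stage the SSEA1pos libraries held 0.956, 0.78 and 0.367 CPM (-7.81 ± 0.73 against MEFs, adjusted p = 1.5e-09). Col18a1, a basement membrane collagen whose C-terminal fragment is endostatin, fell by 3.3 ± 0.5 at day 3 in SSEA1pos cells (adjusted p = 8.4e-06), from 124, 158 and 369 CPM in MEFs to 25.8, 17.3 and 22.8 CPM. It then stood at 393, 326 and 327 CPM at day 12 and at 783, 468 and 562 CPM at the iPS stage, where no library overlapped MEFs. That rise over MEFs (1.48 ± 0.47, adjusted p = 0.0078) was lost without MEF replicate 1 (1.15, adjusted p = 0.055), reached 2.06 without MEF replicate 3 and was 0.96, under 2-fold, with GC trend removed and a replicate block.

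**Figure D4:**
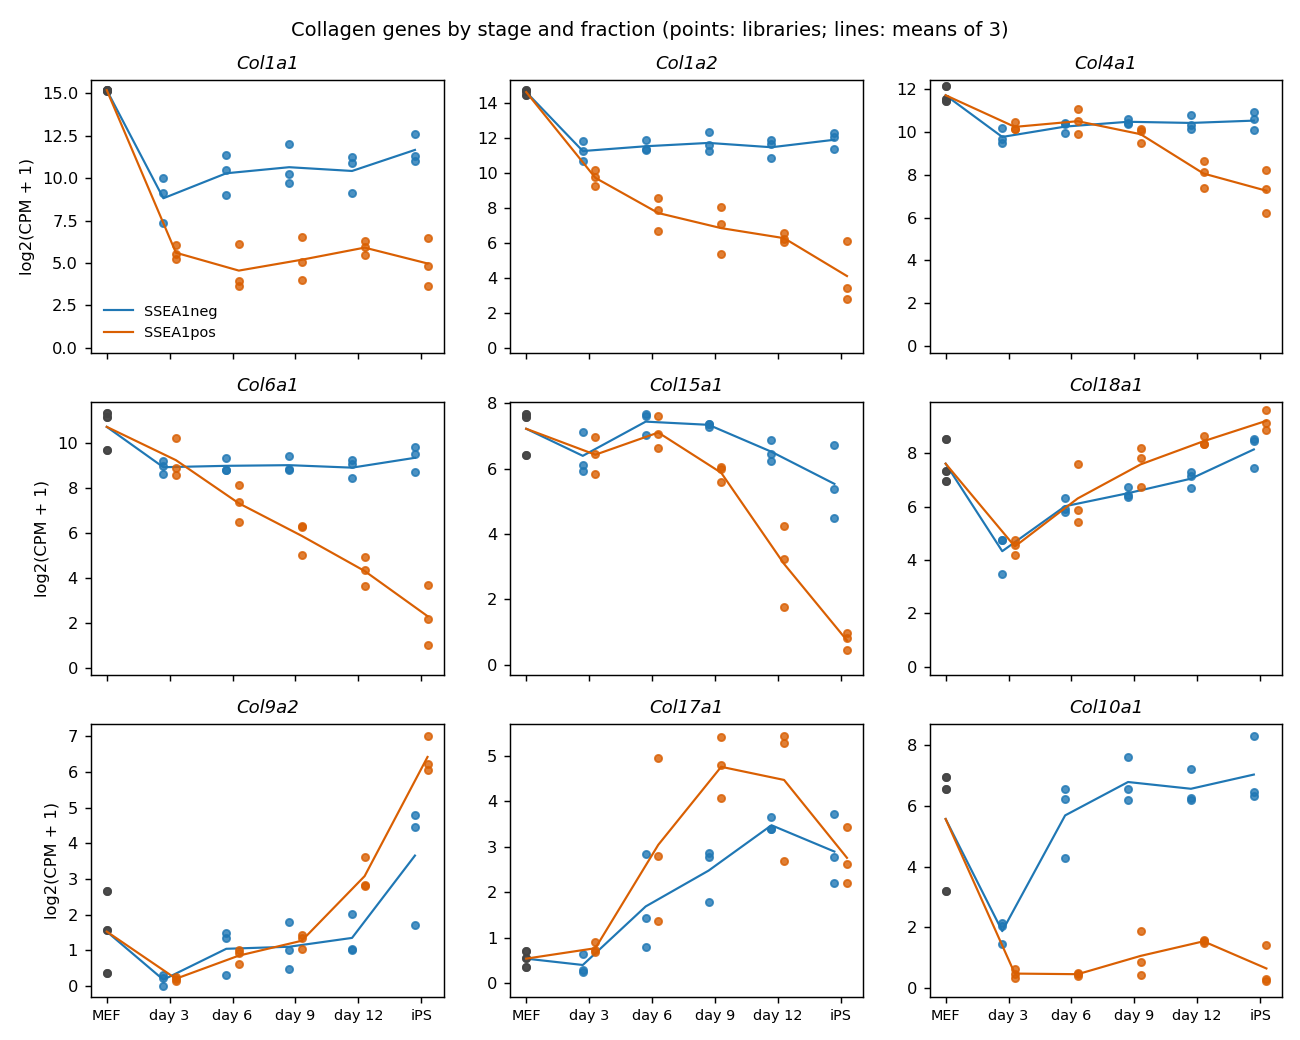
Levels of 9 collagen genes as log2(CPM + 1) against stage, with a point per library, lines through the means of 3 and the MEF libraries in grey. In SSEA1pos cells (orange) Col1a1 is low by day 3, Col4a1 and Col15a1 fall mainly after day 6, Col6a1 falls at each stage, and Col18a1 and Col9a2 rise to the iPS stage.

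The sort separated more collagen genes at each stage up to day 9. SSEA1pos cells were lower than SSEA1neg cells in 8 of 43 genes at day 3 (3.91% of all genes), 22 at day 6 (10.1%), 31 at day 9 (13.7%), 31 at day 12 (18%) and 32 at the iPS stage (21.3%). They were higher in 0, 1, 2, 2 and 1 genes, against 2.76, 6.31, 11.5, 18 and 16% of all genes. The median log2 difference of the collagens went from -0.98 to -1.82, -2.69, -3.26 and -4.7, while that of all genes stayed between -0.03 and 0.06. The day 3 count rested on single libraries: it was 1 without day 3 SSEA1pos replicate 3, 4 without replicate 2, 5 without replicate 1 and 3 without day 3 SSEA1neg replicate 2, and DESeq2 called 13.

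At day 3 the sort difference with the smallest adjusted p was that of Col12a1, 115, 273 and 116 CPM in SSEA1neg against 10.4, 24.2 and 19.6 CPM in SSEA1pos cells (-3.22 ± 0.79, adjusted p = 0.0092). Col24a1, a minor fibrillar gene, differed by -3.11 ± 0.92 (adjusted p = 0.027). Its levels were near the floor, at 0.122, 1.47 and 0.606 CPM in SSEA1neg and 0.112, 0.0663 and 0.0512 CPM in SSEA1pos cells. Replicate 1 was thus nearly equal in the fractions. Col10a1 encodes the network collagen of hypertrophic cartilage. At day 6 it measured 18.4, 94.3 and 73.3 CPM in SSEA1neg and 0.399, 0.374 and 0.317 CPM in SSEA1pos cells (-7.39 ± 1.03, adjusted p = 2.3e-05). At day 9 Col11a1, a minor chain of fibrils, differed by -3.48 ± 0.49 (adjusted p = 9.6e-06) and Col5a1 by -3.67 ± 0.54 (adjusted p = 1.6e-05). At day 12 Col5a2, the partner of Col5a1, differed by -4.87 ± 0.68 (adjusted p = 3.8e-06), and Col1a2 by -5.27 ± 0.75 (adjusted p = 5.3e-06).

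The sort difference itself changed between day 3 and day 12 for 13 collagen genes, each more negative at day 12, and for 0 in the other direction; 7.93% and 6.21% of all genes did so. Among them Col11a1 changed by -3.79 ± 0.65 (adjusted p = 0.00051) and Col4a2 by -3.17 ± 0.51 (adjusted p = 0.00034). From day 12 to the iPS stage 1 collagen gene, Col6a2, which is also among the 13, became more negative again (-3.53 ± 0.82, adjusted p = 0.023), against 1.44% of all genes lower and 0.41% higher. That call was lost without day 12 SSEA1neg replicate 1 (-3.28), iPS-stage SSEA1neg replicate 2 (-3.32), day 12 SSEA1pos replicate 3 (-2.82) or iPS-stage SSEA1pos replicate 2 (-3.32) or 3 (-3.12).

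Within SSEA1neg cells many collagen genes rose after day 3, most of them outside the fibrillar class. Day 12 group means lay on both sides of MEFs. Group means of the low-level genes Col20a1 and Col6a6 were 432 and 383% of the MEF mean, and those of Col1a1 and Col5a1 were 4.37 and 4.51%. The Col6a6 libraries overlapped MEFs, with 12.3, 6.42 and 15.9 against 6.86, 0.093 and 2.09 CPM, whereas those of Col20a1 did not. From day 3 to day 12, 21 of 43 rose and 0 fell, against 16.3% and 6.12% of all genes, with a median log2 change of 1.97 for the collagens. By class these were 7 of the 8 tested FACIT genes, 3 of 4 transmembrane genes and 2 of 11 fibrillar genes. Type IV, type VI, short-chain and the remaining class gave 2 each, and Col18a1 was the only multiplexin. Some FACIT and transmembrane genes stood near the floor at day 3. Col9a1 had 0, 0 and 0.0505 CPM at day 3 and 2.13, 0.548 and 0.589 CPM at day 12. Col13a1 had 0 reads in each day 3 library and 0.322, 0.226 and 0.118 CPM at day 12. Col12a1, by contrast, had 115, 273 and 116 CPM at day 3. Col10a1 went from 3.36, 3.1 and 1.72 CPM to 73, 149 and 75.9 CPM (5.19 ± 0.86, adjusted p = 0.00012), without overlap. Its MEF values, 8.25, 122 and 93.2 CPM, overlapped the day 12 range, and its exons overlap Nt5dc1 on the opposite strand, whose reads cannot be separated without strand. Chondrocyte markers (7 genes) moved in the same step: their sum was 2.88 to 6.71 CPM at day 3 and 44.5 to 88.2 CPM at day 12, with Cnmd, Comp and Sox9 called higher and 0 lower. The part of these markers in the rises of Col10a1 and the FACIT genes was not tested. Col24a1 rose by 2.63 ± 0.73 (adjusted p = 0.0071), from 0.122, 1.47 and 0.606 CPM, near the floor, to 4.57, 5.84 and 3.22 CPM. The rises of Col3a1 (2.23 ± 0.79, adjusted p = 0.03) and Col12a1 (2.04 ± 0.74, adjusted p = 0.034) were lost when any of 4 libraries was left out: day 3 replicate 1 (1.98 and 1.93) or 3 (2.33 and 1.94), or day 12 replicate 2 (1.73 and 1.79) or 3 (2.28 and 2.04).

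Recovery against MEFs was incomplete for type I collagen and for other collagen genes. In SSEA1neg cells 22 collagen genes were below MEFs at day 6 (12.4% of all genes), 20 at day 9 (11.6%), 18 at day 12 (11.1%) and 15 at the iPS stage (7.7%). At the iPS stage Col1a2 measured 2610, 4960 and 4280 CPM, still 2.69 ± 0.67 under MEFs (adjusted p = 0.0028), with every library below the lowest MEF library. From day 12 to the iPS stage 4 genes rose and 0 fell (4.72% and 2.5% of all genes), and these calls rested on single libraries: 0 genes were called without day 12 SSEA1neg replicate 1 or 2, 1 without replicate 3 and 2 without iPS-stage SSEA1neg replicate 3.

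From day 3 to day 12, 11 collagen genes fell and 11 rose in SSEA1pos cells (10.5% and 18.7% of all genes). Those that fell were 5 fibrillar, 3 type IV and 2 type VI genes and Col15a1. Those that rose included 4 FACIT genes, Col18a1 and the transmembrane genes Col13a1 and Col17a1. From day 12 to the iPS stage 7 fell and 1 rose (5.75% and 3.74% of all genes), 8 in all, against 4 without day 12 SSEA1pos replicate 3 or iPS-stage SSEA1pos replicate 2, 5 without replicate 3 of the latter, and 13 with GC removal and a replicate block. The one that rose, Col9a2, encodes a chain of type IX, the FACIT collagen of cartilage. It stood at 11.2, 5.95 and 6.16 CPM at day 12 and at 73.3, 65.1 and 127 CPM at the iPS stage, without overlap (3.51 ± 0.81, adjusted p = 0.0045). In the same step 2 of the 7 chondrocyte markers, the matrilin genes Matn1 and Matn3, rose and 2, Cnmd and Sox9, fell, and their part in the Col9a2 rise was not tested.

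Some collagen genes rose over MEFs, and a gene not counted here may still have had a higher mean. In SSEA1pos cells 1 rose over MEFs at day 6, 2 at day 9, 4 at day 12 and 8 at the iPS stage (16.9, 20.6, 26.5 and 27.9% of all genes), while 29, 30, 30 and 32 fell (16.6, 18, 20.2 and 22.5%). In SSEA1neg cells the numbers that rose were 1, 1, 2 and 6 (15.8, 14.9, 17 and 19.1% of all genes). Col17a1, the hemidesmosome collagen of epithelial cells, had the largest rise over MEFs of the collagen genes at days 9 and 12. It measured 0.639, 0.465 and 0.278 CPM in MEFs, 41.3, 15.8 and 26.8 CPM in day 9 SSEA1pos cells (5.82 ± 1.01, adjusted p = 3.4e-05) and 5.42, 42.5 and 37.8 CPM at day 12 (5.85 ± 1.01, adjusted p = 2.4e-05). All these libraries lay above MEFs, with day 12 replicate 1 well below its group. Day 12 SSEA1neg cells had 9.4, 9.42 and 11.6 CPM. The epithelial and keratinocyte markers (10 genes) summed to 13.6 to 26 CPM in MEFs, 583 to 1880 CPM in day 9 and 1310 to 1840 CPM in day 12 SSEA1pos cells, and their part in the Col17a1 level was not tested.

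Further FACIT genes rose over MEFs. Col22a1 is a collagen of tissue junctions such as those of muscle and tendon. In MEFs it measured 0.232, 0.093 and 0.417 CPM, which is 4, 1 and 3 reads. In iPS-stage SSEA1pos cells it measured 11, 5.4 and 5.19 CPM (4.91 ± 1.11, adjusted p = 0.00042). Its exons overlap an antisense gene, whose reads cannot be separated without strand. Col9a3, another type IX chain, went from 2.38, 0.744 and 2.5 CPM to 7.68, 7.57 and 8.54 CPM at day 12 (2.08 ± 0.59, adjusted p = 0.004). Its exons overlap those of Tcfl5 on the opposite strand, with the same limit. Both sets lay above all MEF libraries. The rise of Col9a3 at the iPS stage (1.51 ± 0.59, adjusted p = 0.027) was lost without MEF replicate 2 (1.1) or iPS-stage SSEA1pos replicate 1 (1.41) or 2 (1.14), and with the GC trend removed (1.1).

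Partner chains of one collagen did not all keep their proportion. Ratios here are of reads per base of exon, which allows 2 genes to be compared. Col4a1 to Col4a2 stayed near even, with group means from 1.02 to 1.33. Across the 33 libraries their log2 levels correlated at r = 0.99, a description of points that share libraries and depth. Exons of these 2 genes overlap each other on opposite strands, and reads there cannot be separated without strand. The part of this overlap in the ratio and the correlation was not tested. Col1a1 to Col1a2, by contrast, was 3, 2.66 and 2.77 in MEFs, 0.188, 0.526 and 0.433 in day 3 SSEA1neg and 0.114, 0.106 and 0.102 in day 3 SSEA1pos cells, 3 groups without overlap. In SSEA1pos cells it was 1.14, 1.71 and 1.62 at day 12, still below every MEF library, and 2.44, 2.33 and 8.53 at the iPS stage. By day 12 the group means of Col1a1 and Col1a2 in SSEA1pos cells were only 0.161 and 0.301% of the MEF mean. With the length of the longest transcript in place of all exons, the MEF ratio was 1.43, 1.27 and 1.32 and the day 3 SSEA1pos ratio 0.0542, 0.0505 and 0.0485, so the scale depends on the length used and the fall does not.

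**Figure D5:**
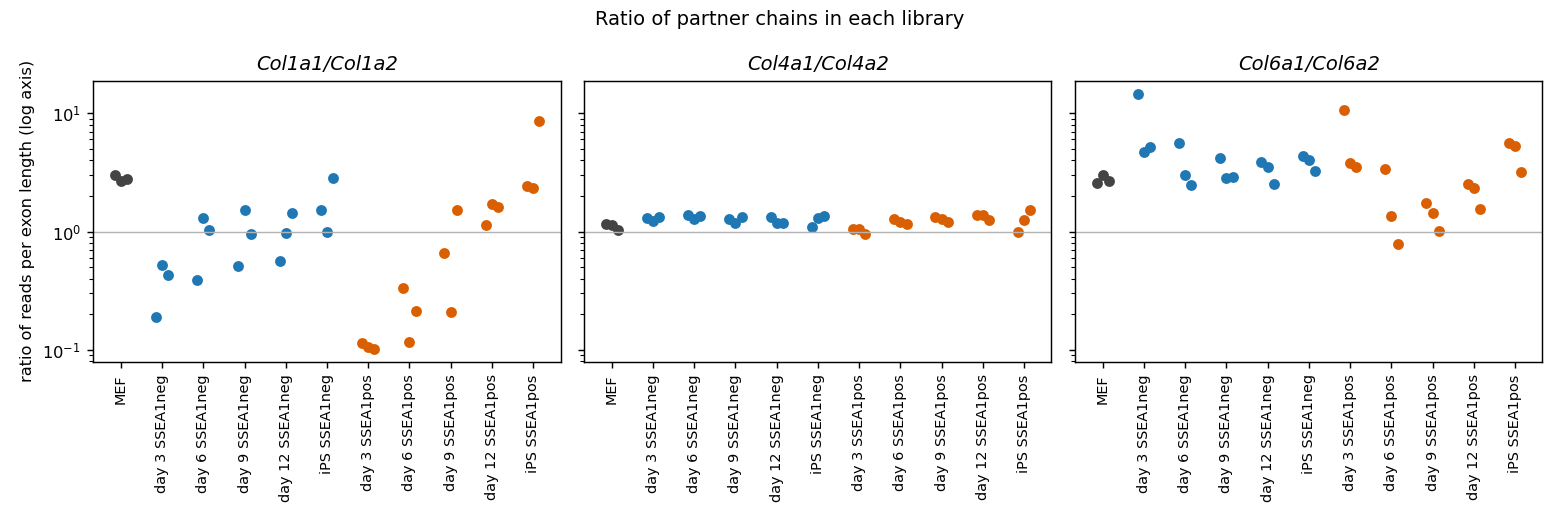
Ratio of reads per exon length of 3 partner pairs in each library, on a log axis, with a line at 1. Col4a1 to Col4a2 stays between 0.951 and 1.53, Col1a1 to Col1a2 drops at day 3 and climbs again, and Col6a1 to Col6a2 is highest in replicate 1 of both day 3 fractions.

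Col6a1 to Col6a2 was 2.57, 2.98 and 2.66 in MEFs per base of exon, and 1.62, 1.88 and 1.68 with the length of the longest transcript. The ratios that follow are per base of exon, and their scale likewise depends on the length used. Replicate 1 stood apart at day 3 in both fractions, with 14.6 against 4.74 and 5.18 in SSEA1neg and 10.6 against 3.76 and 3.48 in SSEA1pos cells. Col5a1 to Col5a2, the type V pair, was 1.69, 1.18 and 1.58 in MEFs and 0.262, 0.479 and 0.658 in day 3 SSEA1pos cells. It was 3.25, 7.2 and 44.4 at the iPS stage, where Col5a2 had fallen to 21.4, 5.68 and 1.99 CPM.

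Most genes of the machinery that builds collagen were lower as well. Of 19 genes for modification and folding, 13 fell and 1 rose in day 3 SSEA1pos cells (16.7% and 15.6% of all genes) and 16 fell in day 12 SSEA1pos cells (20.2% of all genes). P4ha1, a prolyl hydroxylase subunit whose reaction stabilises the triple helix, went from 1130, 933 and 866 CPM in MEFs to 43.1, 47.8 and 36 CPM at day 3 (-4.53 ± 0.24, adjusted p = 1.5e-12). Serpinh1, the collagen chaperone HSP47, fell by 1.92 ± 0.36 at day 3 (adjusted p = 0.00011) and by 4.08 ± 0.4 at day 12 (adjusted p = 4.6e-09). The gene that rose was Colgalt2, a collagen galactosyltransferase, from 2.03, 0 and 0.417 to 11.3, 7.56 and 10.4 CPM.

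Of 10 tested genes for export and propeptide cleavage, 9 fell and 1 rose at day 3 in SSEA1pos cells, against 16.7% and 15.6% of all genes; the one that rose was Pcolce2, an enhancer of propeptide cleavage (2.37 ± 0.46, adjusted p = 0.00014). All 5 cross-linking genes fell in day 12 SSEA1pos cells, when 20.2% of all genes fell, with Loxl2, a lysyl oxidase, at -6.7 ± 0.47 (adjusted p = 3.8e-11). Of 9 tested receptor and uptake genes 7 fell in the same comparison, against the same 20.2%. Ddr1, a collagen receptor kinase of epithelial cells, was among them at -1.65 ± 0.38 (adjusted p = 0.00055), against -0.88 ± 0.37 at day 3 (adjusted p = 0.054). In iPS-stage SSEA1neg cells 8 of 19, 7 of 10, 2 of 5 and 2 of 9 genes of these lists were below MEFs, against 7.7% of all genes.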

How the data were processed

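The authors deposited 1 table of raw read counts per Ensembl gene for each of the 33 libraries, with no normalisation. Tools listed in the submitters' processing notes, without their roles, were HTSeq 0.6.0, STAR 2.3.0 and Picard 1.100, with build mm9; the release of the annotation was not given in the sources. The library kit marks strand, per the labels' protocols, but file names of the deposited tables point to unstranded counting, and then reads of overlapping opposite genes cannot be told apart; 7 of the 44 collagen genes (Col4a1, Col4a2, Col5a1, Col9a3, Col10a1, Col15a1 and Col22a1) overlap a counted gene on the opposite strand. Symbols, exon lengths and GC content came from GENCODE M21 (GRCm38), and promoter windows from RefSeq (GRCm38.p6). No coordinate of the count data is printed.

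Differences were tested with edgeR 4.0.16 (quasi-likelihood, robust, TMM, filterByExpr; R 4.3.3) in 1 model over the 11 groups, with Benjamini-Hochberg adjustment over 17326 genes and 22 residual degrees of freedom. Standard errors are the log2 fold change over the square root of F. CPM are TMM-scaled. The fit was tested on simulated data. TMM left the median change of all genes against MEFs at up to 0.26, and changes are relative to it. Replicates of a group correlated at r = 0.928 to 0.996 and each pair differed beyond counting noise (lowest chi-square over its degrees of freedom 14). Collagen genes, classes and lists were chosen with earlier results of these data known. Genes described singly were the given markers, the highest members of each class, called genes with the smallest p per comparison, and those above MEFs somewhere; a few of them and the chain pairs were picked for display after their values were seen. Alternatives were RLE scaling, DESeq2 1.42.0, other filters, only the groups compared, a replicate block, removal of a GC trend, and each library left out. Same-numbered libraries deviated together for the sort at days 3 to 12 (r = 0.35 to 0.47, 0.3 to 0.56, 0.18 to 0.31 and 0.18 to 0.24), for both SSEA1neg steps (0.21 to 0.46 and 0.27 to 0.45) and for SSEA1pos cells of days 3, 6 and 12 against MEFs (0.15 to 0.23, 0.11 to 0.14 and 0.16 to 0.2); in the other comparisons at least 1 pair did not exceed 0.1. This pairing was read from these values alone, as no label tells what equal numbers have in common. The main model had no replicate term, and the replicate block was an alternative only.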

Additional observations from a re-analysis of the deposited data

Results flagged for a closer look

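The difference between SSEA1pos and SSEA1neg cells changed between day 3 and day 12 (interaction in edgeR's quasi-likelihood test) for 13 collagen genes, all more negative at day 12. Among fibrillar genes the log2 change was -3.71 for Col1a2, -3.78 for Col3a1, -2.18 for Col5a1, -3.35 for Col5a2, -2.3 for Col5a3, -3.79 for Col11a1 and -2.41 for Col27a1. It was -2.74 for Col4a1 and -3.17 for Col4a2, -5.08 for Col6a1 and -4.54 for Col6a2. The FACIT gene Col16a1 had -2.11 and the multiplexin Col15a1 -3.27.

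Single libraries mattered for several of these. The call of Col3a1 was lost without day 12 SSEA1neg replicate 2 (-3.29, adjusted p = 0.053) or day 12 SSEA1pos replicate 1 (-3.46, adjusted p = 0.064). That of Col5a1 was lost without SSEA1neg day 3 replicate 1 (-1.91) or 3 (-2.15), SSEA1neg day 12 replicate 3 (-1.79), SSEA1pos day 3 replicate 2 (-2.11) or 3 (-2.06), or SSEA1pos day 12 replicate 2 (-2.02). Col16a1, at adjusted p = 0.049, was lost in 8 of the fits that left out a library, where it ran from -2.18 to -1.74. Without day 12 SSEA1pos replicate 3 Col6a2 stood at -5.26 and Col15a1 at -4.09, and without day 3 SSEA1pos replicate 1 Col6a1 stood at -4.46.

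Between day 12 and the iPS stage the same difference changed for Col6a2 by -3.53 ± 0.82 (adjusted p = 0.023). It was lost without day 12 SSEA1neg replicate 1 (-3.28), iPS-stage SSEA1neg replicate 2 (-3.32), day 12 SSEA1pos replicate 3 (-2.82) or iPS-stage SSEA1pos replicate 2 (-3.32) or 3 (-3.12), and was -4.6 without iPS-stage SSEA1pos replicate 1.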

How the results depend on the processing

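Over 692 called results of the genes named, RLE scaling kept 687, DESeq2 689, a replicate block 690, removal of a GC trend 672 and both together 675; calls without a low-count filter kept 658. A mean of at least 1 CPM kept 679 of 686, only the groups compared 635 of 674, and leaving out each library 3933 of 4278, with 0 turned. The calls the block ended were Col18a1 in the day 9 sort (1.2 to 1.12, adjusted p = 0.05) and Col4a5 from day 3 to day 12 in SSEA1pos cells (-1.29 to -1.1, adjusted p = 0.063). A result not called, the sort difference of Col6a1 at day 3 (0.48), was -0.21 without day 3 SSEA1pos replicate 1, and -0.21 to 0.76 over all libraries left out. The number of collagen genes called moved by over 1.5 times in 4 comparisons. For the sort at day 3 (8 genes) DESeq2 called 13, and leaving out a library gave 1 to 8. For SSEA1pos cells from day 12 to the iPS stage (8 genes) GC removal with the replicate block called 13, and leaving out a library 4 to 11. For SSEA1neg cells over the same step (4 genes) no filter called 1, only the groups compared 0, and leaving out a library 0 to 3. For the change of the sort difference over that step (1 gene) DESeq2 called 5, only the groups compared 0, the replicate block 2, GC removal with the block 2, and leaving out a library 0 to 5. The block moved no other of these counts by over 1.5 times. The cause of these shifts was not tested. Genes under a few CPM, such as Col13a1, are limited by depth.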

Other observations

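Some low-level collagen genes were highest in iPS-stage SSEA1neg cells but uneven over its libraries. Col26a1 measured 57.2, 11.9 and 2.05 CPM there against 3.89, 0.186 and 1.25 CPM in MEFs. Its rise (3.68 ± 1.11, adjusted p = 0.011) was lost without iPS-stage SSEA1neg replicate 1 (1.96, adjusted p = 0.15). Col20a1, a FACIT gene, measured 46.2, 8.31 and 3.13 CPM in the same libraries, and its rise (3.06 ± 0.91, adjusted p = 0.0098) was lost without replicate 1 too (1.31, adjusted p = 0.24). Col9a1, a type IX chain, measured 17.2, 4.07 and 0.223 CPM. Replicate 1 was the highest for each of these genes, and replicate 3 the lowest.

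The type IX chains did not share a pattern in SSEA1pos cells. At the iPS stage Col9a2 stood at 73.3, 65.1 and 127 CPM, Col9a3 at 5.68, 7.41 and 2.94 CPM and Col9a1 at 0.0531, 0.0557 and 0 CPM. Of 7 chondrocyte markers, 2 rose over MEFs in the same libraries and 2 fell, against 27.9% and 22.5% of all genes. Matn1 (9.77, 6.3 and 11.4 CPM) and Matn3 (6.59, 9.25 and 9.23 CPM) rose, by 7.18 ± 1.02 and 2.28 ± 0.53 (adjusted p = 1.3e-06 and 0.00057), whereas Sox9 (1.54, 1.28 and 0.892 CPM) and Comp (2.44, 0.557 and 0.262 CPM) fell. The sum of the list was 25.5 to 43.8 CPM against 58.2 to 131 CPM in MEFs. Their part in the Col9a2 level was not tested.

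Among the 6 type VI genes, Col6a6 had 0 reads in all day 3 SSEA1pos libraries and 6.86, 0.093 and 2.09 CPM in MEFs. Measured against 3 counts over the day 3 group, it was at least 78-fold lower there, a bound that rested on MEF replicate 1 and was 18.2-fold without it. In day 12 SSEA1neg cells it stood at 12.3, 6.42 and 15.9 CPM.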
